A study of Homo sapiens with 2 samples.

Results

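Cornifying squamous cells were examined in cultures of RWPE1, an immortalized line of prostate epithelium, as the cells with the highest level of 6 cornified envelope precursor transcripts. The transcripts were SPRR1A, SPRR1B, SPRR2A, SPRR2D, SPRR3 and IVL, and a cell's score was their summed UMIs (unique molecular identifiers, counted RNA molecules) per 10000 UMIs of the cell. Kept cells were those with more than 2500 genes detected and less than 7.5% of UMIs from mitochondrial genes, and of these the cells at or above the 98th percentile of the score, pooled over both libraries, formed the group. This gave 483 cells of 24107 kept cells, out of 29859 barcodes in all. They are called SPRR-high cells here, after the leading genes of the score, since KRT1, loricrin and filaggrin of cornified skin were at or near 0 in them, although other late genes were found in RWPE1.

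The single-cell RNA was from 2 cultures, with 1 library for each. RWPE-ERG-mAKT cells carried ERG, an ETS-family transcription factor that is fused and overexpressed in many prostate cancers, together with mAKT, a myristoylated and constitutively active AKT1. RWPE1 cells were the vector-only control by their labels, although the study's text calls them parental. According to the study's methods, ERG was driven by the HNRNPA2B1 promoter from a retroviral vector, AKT1 came from another, transduced cells were kept under hygromycin and puromycin, and the medium of RWPE1 was a serum-free one for keratinocytes. No source used here says whether either culture was a single clone. With 1 library per condition no test between conditions was possible, and every interval below is a 95% interval that covers counting error only.

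Squamous epithelia renew from basal cells that stop dividing, move up and build a cornified envelope beneath the cell membrane. Involucrin (IVL) is laid down early as a scaffold, small proline-rich proteins (SPRRs) are crosslinked to it by transglutaminases, and loricrin and filaggrin come last in skin. Prostate epithelium does not normally cornify, but squamous metaplasia of the prostate is a known response to hormonal change or injury.

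The score genes lie together in the epidermal differentiation complex of chromosome 1 (GRCh38), a cluster of envelope and S100 genes. By the GENCODE annotation IVL spans chr1:152908545-152911886, SPRR1A chr1:152985231-152985500, SPRR3 chr1:153001747-153003856 and SPRR1B chr1:153031202-153032900, all on the plus strand. SPRR2D (chr1:153039725-153041931) and SPRR2A (chr1:153056113-153057537) lie on the minus strand. Promoters from RefSeq (GRCh38.p14) were searched on both strands for TGANTCA, which is the AP-1 site and its own reverse complement, for the ETS-type AGGAAG and for the octamer ATTTGCAT. AP-1 sites have a known role in involucrin and SPRR transcription, and ERG belongs to the ETS family. The 250 bases before the start site are shown for 4 score genes because this group was chosen by their RNA, with TGANTCA in capitals.
SPRR1B: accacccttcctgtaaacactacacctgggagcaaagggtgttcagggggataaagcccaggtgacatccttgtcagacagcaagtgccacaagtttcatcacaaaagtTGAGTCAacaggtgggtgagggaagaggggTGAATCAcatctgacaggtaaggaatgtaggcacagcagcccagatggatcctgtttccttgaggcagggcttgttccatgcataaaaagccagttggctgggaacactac
SPRR2A: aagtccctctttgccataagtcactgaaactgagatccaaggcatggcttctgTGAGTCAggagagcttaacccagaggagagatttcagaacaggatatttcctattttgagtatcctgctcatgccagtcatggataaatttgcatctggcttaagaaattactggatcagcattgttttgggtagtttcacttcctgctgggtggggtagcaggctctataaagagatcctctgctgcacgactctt
SPRR3: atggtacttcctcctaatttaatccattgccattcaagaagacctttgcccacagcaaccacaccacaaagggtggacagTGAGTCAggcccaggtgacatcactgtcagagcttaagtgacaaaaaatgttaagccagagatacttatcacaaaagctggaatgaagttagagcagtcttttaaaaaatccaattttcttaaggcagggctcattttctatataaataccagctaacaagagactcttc
IVL: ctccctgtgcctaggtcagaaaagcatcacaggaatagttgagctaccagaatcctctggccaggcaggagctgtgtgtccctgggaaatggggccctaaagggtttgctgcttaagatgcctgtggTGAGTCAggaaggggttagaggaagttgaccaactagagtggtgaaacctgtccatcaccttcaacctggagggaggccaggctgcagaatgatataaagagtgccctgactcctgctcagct
These windows are chr1:153030953-153031202 (plus strand) for SPRR1B, chr1:153057513-153057762 (minus strand) for SPRR2A, chr1:153001499-153001748 (plus strand) for SPRR3 and chr1:152908296-152908545 (plus strand) for IVL. TGANTCA was found in all 5 of the score gene promoters in the table, SPRR1A included, against 2308 of 35116 promoters (6.57%). It lay 104 and 134 bases before the start of SPRR1B, 190 before SPRR2A, 163 before SPRR3 and 116 before IVL. AGGAAG was in 4 of the 5 promoters, against 28.7% of all promoters, and 1 of the IVL matches shared 1 base with TGANTCA. ATTTGCAT was in the SPRR2A promoter alone among the 5, against 1.63% of all promoters. Over all 11 promoters looked up, of score genes and others, TGANTCA was in 6, AGGAAG in 6 and ATTTGCAT in 1. Outside the score LCN2 held TGANTCA, while S100A7, S100A9, SPINK5, IGFL1 and AQP3 did not. A match describes the letters in these windows and is not evidence of binding.

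SPRR-high cells made up 388 of 14140 RWPE-ERG-mAKT cells (2.74%, exact binomial interval 2.48 to 3.03) and 95 of 9967 RWPE1 cells (0.953%, interval 0.772 to 1.16). The share was thus 2.88 times as high in RWPE-ERG-mAKT (interval 2.29 to 3.64). The excess lay at the low end of the score. At a score of 10 or more the shares were 0.523% of RWPE-ERG-mAKT cells (74 cells) and 0.522% of RWPE1 cells (52 cells). At 20 or more they were 0.184% of RWPE-ERG-mAKT cells (26 cells) and 0.291% of RWPE1 cells (29 cells). The order of the libraries therefore depended on where the score was divided.

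**Figure D1:**
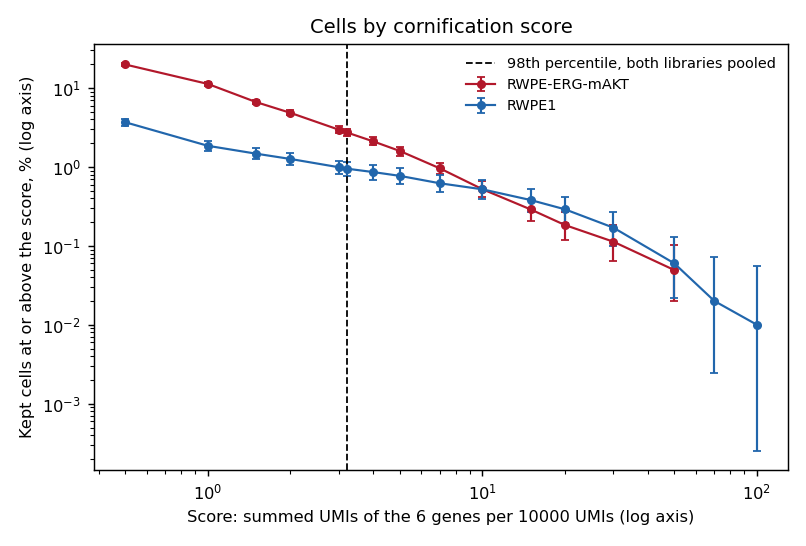
Percent of kept cells at or above each score (log axes), with exact 95% binomial intervals, for RWPE-ERG-mAKT and RWPE1; the dashed line is the pooled 98th percentile (3.21). The curves are apart at the line (2.74% in RWPE-ERG-mAKT and 0.953% in RWPE1) and meet at a score of 10 (0.523% and 0.522%).

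The group is a range of a continuous score and has no gap at its edge. The threshold was 3.21 UMIs per 10000, with 3.207, 3.209 and 3.21 in the nearest cells inside it and 3.203, 3.2 and 3.199 in the nearest cells outside. Within 10% of the threshold lay 48 RWPE-ERG-mAKT cells inside and 53 outside, and 4 RWPE1 cells inside and 7 outside. The score was 0 in 75.8% of kept RWPE-ERG-mAKT cells and in 94.9% of kept RWPE1 cells. Among SPRR-high cells it ran from 3.207 to 65.4 in RWPE-ERG-mAKT, with a median of 5.57, and from 3.21 to 150.2 in RWPE1, with a median of 12.2.

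The transcripts behind the score differed between the libraries. SPRR1B supplied 62.6% of the score UMIs in RWPE-ERG-mAKT and 69.0% in RWPE1. SPRR2A and SPRR2D came next in RWPE-ERG-mAKT, with 14.5% and 18.2%, against 3.51% and 2.42% in RWPE1. In RWPE1 the next was SPRR3, a precursor best known from oesophagus and other mucosae, with 16.8%, against 2.75% in RWPE-ERG-mAKT. IVL supplied 0.815% in RWPE-ERG-mAKT and 5.96% in RWPE1. It had a UMI in 33 of 388 SPRR-high RWPE-ERG-mAKT cells (8.51%) and in 34 of 95 SPRR-high RWPE1 cells (35.8%), and SPRR3 in 12 (3.09%) and 37 (38.9%) of them. SPRR1B was the single score gene detected in 151 of 388 RWPE-ERG-mAKT cells (38.9%) and 24 of 95 RWPE1 cells (25.3%), while at least 3 score genes were detected in 92 RWPE-ERG-mAKT cells (23.7%) and 43 RWPE1 cells (45.3%). SPRR2A and SPRR2D are near-identical copies, as are KRT6A, KRT6B and KRT6C, so the split of reads within each family is uncertain. SPRR2E, a further copy outside the score, was at 46.1 CPM (UMIs of the gene per 1000000 UMIs of the same cells) in SPRR-high and 0.376 CPM in other RWPE-ERG-mAKT cells, and at 85.9 CPM in SPRR-high and 0.0209 CPM in other RWPE1 cells.

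SPRR-high cells were of a depth near that of other cells. Median UMIs per cell were 16262 in SPRR-high and 13537 in other RWPE-ERG-mAKT cells, and 15580 in SPRR-high and 16979 in other RWPE1 cells. The mitochondrial share had medians of 2.49% in SPRR-high and 2.73% in other RWPE-ERG-mAKT cells, and of 5.58% in SPRR-high and 5.44% in other RWPE1 cells. The SPRR-high cells held 7183389 UMIs in RWPE-ERG-mAKT and 1687939 in RWPE1, which sets the precision of their sums. In cells thinned to 500 UMIs, SPRR1B was seen in 27.8% of SPRR-high and 0.734% of other RWPE-ERG-mAKT cells, and in 35.8% of SPRR-high and 0.0709% of other RWPE1 cells. Among 53 RWPE1 barcodes with brain-type transcripts (median 617 UMIs), SPRR1B was seen in 0 of 53, which allows a share of up to 6.72%. These barcodes held at least 2 UMIs of microglial or of choroid plexus genes and were assumed to lack SPRR1B. A few of them were kept cells of full size, so the set does not stand for free RNA alone. Other transcripts of the cultures were found in these barcodes. After the same thinning S100A9 was seen in 1 of the 53 (1.89%), against 57.9% of SPRR-high and 0.78% of other RWPE1 cells, and KRT5 in 16 (30.2%), against 42.1% of SPRR-high and 60.7% of other RWPE1 cells. Before thinning they were seen in 3 (5.66%) and 24 (45.3%) of the 53. The share of other RWPE1 cells with S100A9 after thinning lay inside the interval of the 53 barcodes (0.048 to 10.1%). That interval is too wide to set a level of background for S100A9. The libraries had 37 kept barcodes in common, of which 1 was an SPRR-high cell in RWPE-ERG-mAKT and 0 in RWPE1.

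The label was checked against 16 further squamous markers. Genes with at least 5 CPM over all kept cells of a library and at least 10 UMIs predicted in SPRR-high cells are called measured here. In RWPE-ERG-mAKT 4 of the 16 were measured, and KRT13 and SPINK5 were at least 2-fold higher in SPRR-high cells, where 0.89% of all measured genes were. KRT13 rested on 1 cell that held 45% of its UMIs there, without which its log2 ratio fell from 1.16 to 0.30. In RWPE1 6 were measured and all 6 were at least 2-fold higher (SPINK5, KRT4, KRT10, KRT13, CNFN and TGM1, transglutaminase 1), where 4.64% of all measured genes were. SPINK5 passed in RWPE1 only through the SPRR-high cells. The other markers were too low in most cells for this comparison. Late epidermal genes were not uniform. In SPRR-high RWPE1 cells SBSN was at 129 CPM, KRTDAP at 53.9 CPM, LCE3D at 18.4 CPM and CRNN at 13.6 CPM, each below 0.5 CPM in other RWPE1 cells. In SPRR-high RWPE-ERG-mAKT cells the same 4 genes were at 5.85, 0.418, 1.39 and 0.278 CPM. KRT1 and loricrin (listed as LOR) had 0 UMIs in the SPRR-high cells of both libraries, FLG (filaggrin) had 6 in RWPE-ERG-mAKT and 0 in RWPE1, and DSG1 had 2 in RWPE-ERG-mAKT and 6 in RWPE1. KRT1, loricrin and FLG were near 0 in other cells too, so their absence was not particular to SPRR-high cells. Loricrin had 0 UMIs there, and KRT1 had 0 in RWPE-ERG-mAKT and 5 in RWPE1. FLG was at 0.835 CPM in SPRR-high and 0.147 CPM in other RWPE-ERG-mAKT cells. The basal keratins KRT5 and KRT14 were still at 2704 and 3254 CPM in SPRR-high RWPE-ERG-mAKT cells and at 2108 and 2203 CPM in SPRR-high RWPE1 cells.

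Defining markers of other cell types were at or near 0 in SPRR-high cells. The defining genes PTPRC, TYROBP and CD3E (immune), COL3A1 and PDGFRA (fibroblast), CDH5 (endothelial) and OTX2 (choroid plexus) had 0 UMIs in SPRR-high RWPE-ERG-mAKT cells. In SPRR-high RWPE1 cells PTPRC had 1 UMI and the others had 0. The 8 fibroblast markers summed to 23.7 CPM in SPRR-high and 26.9 CPM in other RWPE-ERG-mAKT cells, of which DCN (decorin) made up 18.4 and 23.2 CPM, and to 7.11 CPM in SPRR-high and 9.54 CPM in other RWPE1 cells. The 11 immune markers summed to 14.8 CPM in SPRR-high and 13.9 CPM in other RWPE-ERG-mAKT cells, and to 37.3 CPM in SPRR-high and 9.8 CPM in other RWPE1 cells. Most of this was CD68, a lysosomal protein of macrophages and other cells, which was at 32.6 CPM in SPRR-high and 8.52 CPM in other RWPE1 cells. ERG was at 15.3 CPM in SPRR-high and 21 CPM in other RWPE-ERG-mAKT cells (log2 ratio -0.45, interval -0.74 to -0.18), and at 4.15 CPM (7 UMIs, 2 of them in 1 cell) in SPRR-high and 1.42 CPM in other RWPE1 cells. The RWPE1 values of ERG are too low for a contrast. AKT1, which the counts do not separate into the added and the cell's own copy, was at 20.9 CPM in SPRR-high and 19.1 CPM in other RWPE-ERG-mAKT cells and at 17.2 CPM in SPRR-high and 22.1 CPM in other RWPE1 cells.

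Within each library, the RNA of SPRR-high cells was summed and set against the sum of all other kept cells. In RWPE-ERG-mAKT, 93 of 10449 measured genes (0.89%) were at least 2-fold higher in SPRR-high cells and 50 (0.479%) were at least 2-fold lower. In RWPE1, 483 of 10400 (4.64%) were at least 2-fold higher and 552 (5.31%) at least 2-fold lower. The median log2 ratio over all measured genes was -0.08 in RWPE-ERG-mAKT and -0.01 in RWPE1. Because the score chose the cells from this same RNA, these counts describe the cells and carry no test. A few genes were measured only through the SPRR-high cells, with under 5 CPM in the other cells, so that they had to differ. They were 10 genes in RWPE-ERG-mAKT and 6 in RWPE1, and without them 88 and 477 genes were at least 2-fold higher. This check used the 5 CPM minimum alone. In RWPE1 the 10 predicted UMIs asked for a level above 5 CPM. Genes that met it only through the SPRR-high cells were not left out.

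Of the 9749 genes measured in both libraries, 62 were at least 2-fold higher in RWPE-ERG-mAKT and 429 in RWPE1, with 43 in both lists. The shared genes were 69.4% of the RWPE-ERG-mAKT list and 10% of the RWPE1 list. For genes at least 2-fold lower, 13 were shared, which was 38.2% of the 34 in RWPE-ERG-mAKT and 3.02% of the 431 in RWPE1. The ratios were on the whole farther from 0 in RWPE1, as the plot of both libraries' ratios shows.

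**Figure D2:**
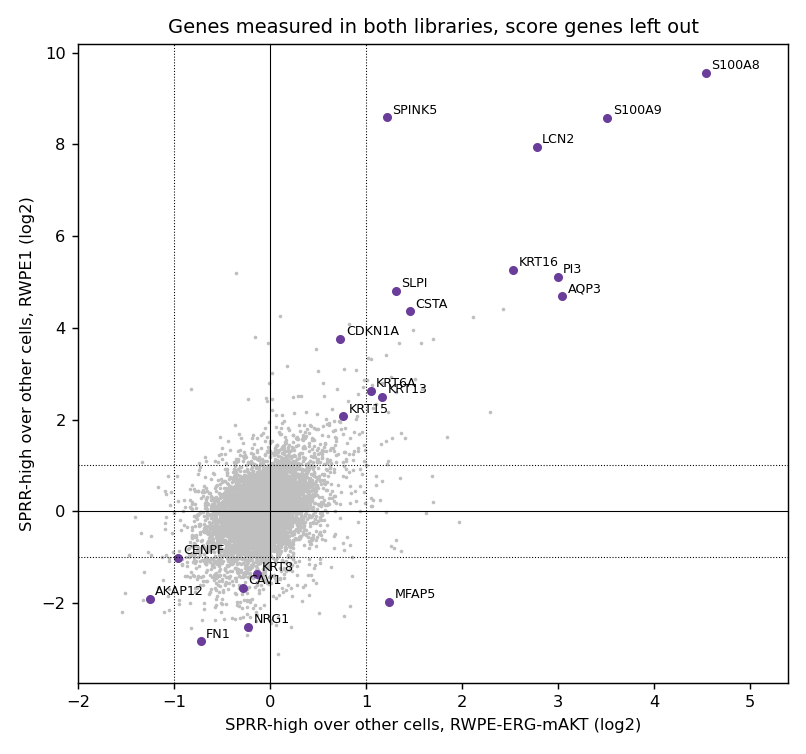
Log2 ratio of SPRR-high over other cells in RWPE-ERG-mAKT (x axis) and RWPE1 (y axis) for genes measured in both, with the score genes left out; dotted lines mark 2-fold. S100A8 and S100A9 lie at the upper right (4.54 and 3.51 in RWPE-ERG-mAKT, 9.55 and 8.58 in RWPE1), and MFAP5 lies higher in one library and lower in the other.

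A pair of S100 genes from the same chromosome 1 cluster had ratios among the largest in both libraries. S100A8 and S100A9 encode the calprotectin pair, antimicrobial proteins that stressed and differentiating keratinocytes share with neutrophils. S100A9 was at 1745 CPM in SPRR-high and 152.9 CPM in other RWPE-ERG-mAKT cells (log2 ratio 3.51, interval 3.48 to 3.54), and at 6355 CPM in SPRR-high and 16.7 CPM in other RWPE1 cells (8.58, interval 8.52 to 8.63). S100A8 was at 990.5 CPM in SPRR-high and 42.6 CPM in other RWPE-ERG-mAKT cells (4.54), and at 3224 CPM in SPRR-high and 4.29 CPM in other RWPE1 cells (9.55). Part of the gap between these ratios lay in the other cells, in which S100A9 and S100A8 had log2 ratios of 3.20 and 3.31 for RWPE-ERG-mAKT over RWPE1.

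Of the S100 list, 3 of 11 measured genes were at least 2-fold higher in SPRR-high RWPE-ERG-mAKT cells (S100A8, S100A9 and S100P) and 5 of 10 in SPRR-high RWPE1 cells, with list medians of 0.59 and 1.03. Among all measured genes 0.89% were at least 2-fold higher in RWPE-ERG-mAKT and 4.64% in RWPE1. In RWPE1 S100A7 and S100A8 were measured only through the SPRR-high cells, and without them 3 of 8 were higher, with a median of 0.91. S100A7 (psoriasin) was at 640.4 CPM in SPRR-high and 0.45 CPM in other RWPE1 cells, but 1 cell held 93.2% of its 1081 UMIs and the log2 ratio of 10.47 was 6.61 without that cell. In RWPE-ERG-mAKT S100A7 had 161 UMIs in SPRR-high cells, 88.2% of them in 1 cell. Over the whole complex (chr1:151982915-153632039), 2 of 11 measured genes other than the score genes were at least 2-fold higher in SPRR-high RWPE-ERG-mAKT cells and 6 of 11 in SPRR-high RWPE1 cells (4 of 9 without S100A7 and S100A8), and none was 2-fold lower in either.

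Single cells varied widely around these sums. S100A9 had a median of 1.89 UMIs per 10000 in SPRR-high RWPE-ERG-mAKT cells (quartiles 0 and 8.87, highest 525) and of 24.7 in SPRR-high RWPE1 cells (quartiles 4.13 and 85.7, highest 638.6). It was not detected in 26.8% of SPRR-high RWPE-ERG-mAKT cells and 8.42% of SPRR-high RWPE1 cells. The ranges of both libraries overlapped for S100A9, KRT16, PI3 and CDKN1A in the plot of single cells. KRT4 had a UMI in 0.515% of SPRR-high RWPE-ERG-mAKT cells and 60% of SPRR-high RWPE1 cells. LY6D was at 0 in 98.2% of SPRR-high RWPE-ERG-mAKT cells and 23.2% of SPRR-high RWPE1 cells.

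**Figure D3:**
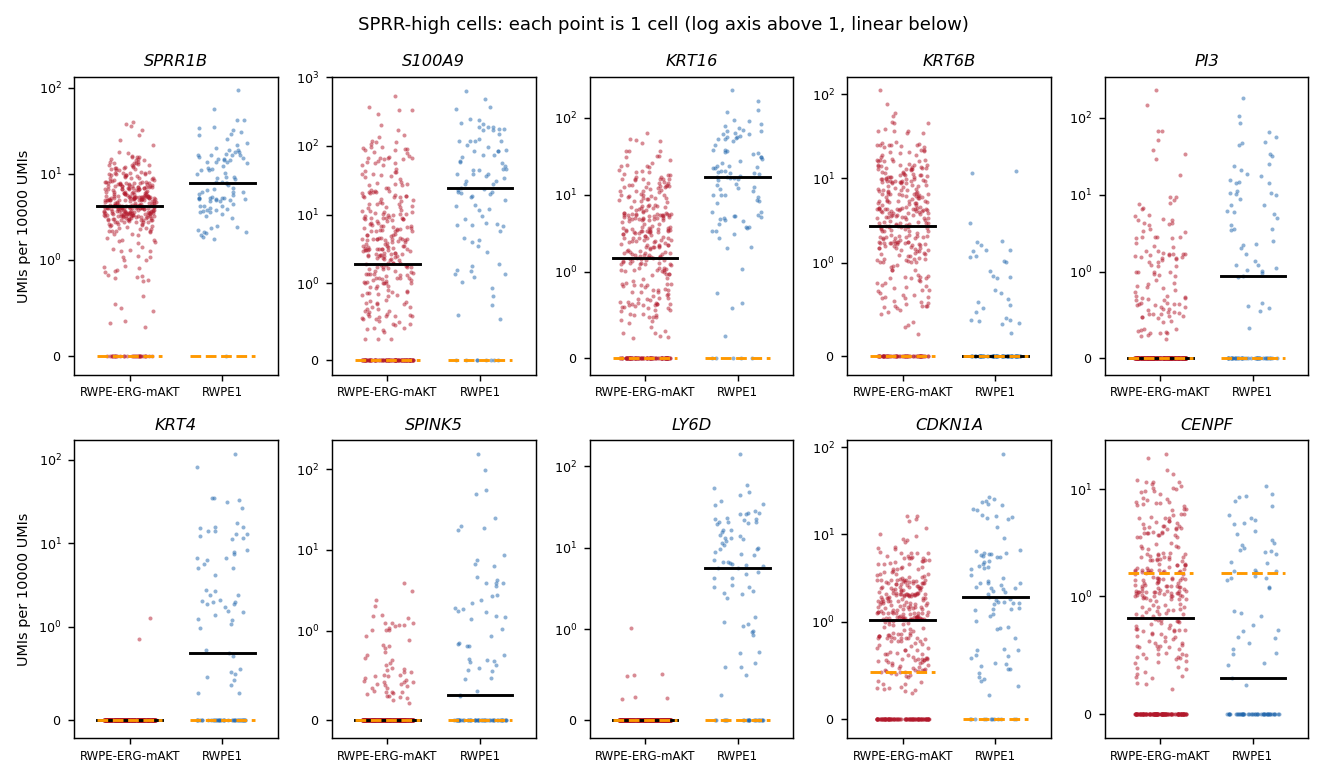
UMIs per 10000 (log axis above 1, linear below) of 10 genes in each SPRR-high cell (points), RWPE-ERG-mAKT left and RWPE1 right; black bars are medians of SPRR-high cells and orange dashed bars medians of other kept cells. The median of S100A9 was 1.89 in RWPE-ERG-mAKT and 24.7 in RWPE1, and KRT4 was detected in 0.515% of the RWPE-ERG-mAKT cells and 60% of the RWPE1 cells.

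The keratins of activated epidermis were also higher in both libraries. KRT6A, KRT6B, KRT6C, KRT16 and KRT17 are induced in wounded, psoriatic and hyperproliferating epidermis. In RWPE-ERG-mAKT, 4 of 5 measured genes of this list were at least 2-fold higher in SPRR-high cells (median 2.45), and in RWPE1 2 of 3 were (median 2.63). Over all measured genes the shares were 0.89% in RWPE-ERG-mAKT and 4.64% in RWPE1. KRT6C was measured in RWPE-ERG-mAKT only through the SPRR-high cells, and without it 3 of 4 were higher, with a median of 1.75. KRT16 was at 460.2 CPM in SPRR-high and 79.6 CPM in other RWPE-ERG-mAKT cells (log2 ratio 2.53), and at 2146 CPM in SPRR-high and 55.7 CPM in other RWPE1 cells (5.27). KRT6A was at 4753 CPM in SPRR-high and 2300 CPM in other RWPE-ERG-mAKT cells (1.05), and at 989.4 CPM in SPRR-high and 159.7 CPM in other RWPE1 cells (2.63). KRT17 had a ratio of 0.93 in RWPE-ERG-mAKT and 0.01 in RWPE1.

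KRT6B and KRT6C set the libraries apart by level. KRT6B was at 659.2 CPM in SPRR-high and 120.8 CPM in other RWPE-ERG-mAKT cells (2.45), and at 43.2 CPM in SPRR-high and 0.81 CPM in other RWPE1 cells (5.74). KRT6C was at 83 CPM in SPRR-high and 3.03 CPM in other RWPE-ERG-mAKT cells (4.77), and at 3.55 CPM (6 UMIs) in SPRR-high and 0.04 CPM in other RWPE1 cells. After thinning to 5000 UMIs, KRT6B was seen in 65.7% of SPRR-high and 26.3% of other RWPE-ERG-mAKT cells, and in 21.1% of SPRR-high and 0.344% of other RWPE1 cells (82.5%, 45.8%, 32.6% and 1.24% before thinning).

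The suprabasal keratins of mucosa were high in SPRR-high RWPE1 cells. KRT4 and its partner KRT13 fill the upper layers of oesophagus, mouth and other wet squamous linings. KRT4 was at 551 CPM in SPRR-high and 9.85 CPM in other RWPE1 cells (log2 ratio 5.81, interval 5.69 to 5.92), while it had 3 UMIs in SPRR-high RWPE-ERG-mAKT cells (0.42 CPM) and 0.28 CPM in the others. KRT13 was at 15.2 CPM in SPRR-high and 6.77 CPM in other RWPE-ERG-mAKT cells (1.16, and 0.30 without the cell that held 45% of its UMIs), and at 1165 CPM in SPRR-high and 206.8 CPM in other RWPE1 cells (2.49). KRT78 had no UMI in SPRR-high RWPE-ERG-mAKT cells and 55.7 CPM in SPRR-high RWPE1 cells. Of the suprabasal keratin list, 1 of 2 measured genes was at least 2-fold higher in RWPE-ERG-mAKT and 3 of 4 in RWPE1 (median 1.75). The background was 0.89% of all measured genes in RWPE-ERG-mAKT and 4.64% in RWPE1.

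KRT10, the suprabasal keratin of skin, was at 335.1 CPM in SPRR-high and 287.4 CPM in other RWPE-ERG-mAKT cells (log2 ratio 0.22), and at 235.2 CPM in SPRR-high and 117.3 CPM in other RWPE1 cells (1.00). Of the simple-epithelium keratins, KRT8 and KRT18 ran the other way in RWPE1, while KRT7 (-0.52) and KRT19 (0.25) stayed within 2-fold there. Of 6 measured simple-epithelium and luminal genes in RWPE1, 2 were at least 2-fold lower and 1 higher (median -0.14). The shares of all measured genes were 5.31% lower and 4.64% higher. KRT8 was at 298.9 CPM in SPRR-high and 330 CPM in other RWPE-ERG-mAKT cells (-0.14), and at 174.2 CPM in SPRR-high and 452.3 CPM in other RWPE1 cells (-1.38). KRT18 had a ratio of -0.24 in RWPE-ERG-mAKT and -1.27 in RWPE1. In the type II keratin cluster (chr12:52168996-52952901) 3 of 7 measured genes were at least 2-fold higher in SPRR-high RWPE-ERG-mAKT cells (2 of 6 without KRT6C) and 2 of 7 in SPRR-high RWPE1 cells. In the type I cluster (chr17:40654665-41624842) 2 of 8 were in RWPE-ERG-mAKT and 4 of 8 in RWPE1. Over all measured genes the shares were 0.89% in RWPE-ERG-mAKT and 4.64% in RWPE1.

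Envelope precursors outside the score were higher in SPRR-high RWPE1 cells as a group. Cystatin A (CSTA), a protease inhibitor that is also built into the envelope, was at 342.2 CPM in SPRR-high and 124.5 CPM in other RWPE-ERG-mAKT cells (log2 ratio 1.46), and at 1369 CPM in SPRR-high and 66.8 CPM in other RWPE1 cells (4.36). Sciellin (SCEL) was at 21.4 CPM in SPRR-high and 10.9 CPM in other RWPE-ERG-mAKT cells (0.98), and at 96 CPM in SPRR-high and 13.1 CPM in other RWPE1 cells (2.87). Periplakin (PPL), which ties the envelope to desmosomes, had a ratio of 0.34 in RWPE-ERG-mAKT and 1.18 in RWPE1, and its partner envoplakin (EVPL) had -0.51 in RWPE-ERG-mAKT and 1.25 in RWPE1. In all, 1 of 5 measured precursors was at least 2-fold higher in RWPE-ERG-mAKT (median 0.34) and 5 of 5 in RWPE1 (median 1.51). Among all measured genes 0.89% were in RWPE-ERG-mAKT and 4.64% in RWPE1.

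TGM1, the transglutaminase that crosslinks the envelope, was at 13.6 CPM in SPRR-high and 1.85 CPM in other RWPE-ERG-mAKT cells (log2 ratio 2.88), and at 45 CPM in SPRR-high and 14.4 CPM in other RWPE1 cells (1.64). In RWPE-ERG-mAKT it fell short of the level required of a measured gene. None of the 5 measured crosslinking and barrier enzymes reached 2-fold in RWPE-ERG-mAKT (median 0.11), against 2 of 4 in RWPE1, TGM1 among them (median 1.16). Of all measured genes 0.89% were at least 2-fold higher in RWPE-ERG-mAKT and 4.64% in RWPE1, so 0 of 5 is near the background.

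Desmosomes are the junctions that hold squamous layers together. Of 12 measured desmosome and junction genes, 3 were at least 2-fold higher in SPRR-high RWPE-ERG-mAKT cells (median 0.75) and 7 in SPRR-high RWPE1 cells (median 1.35). The background was 0.89% of all measured genes in RWPE-ERG-mAKT and 4.64% in RWPE1. PERP, a desmosomal membrane protein and p53/p63 target, was at 1406 CPM in SPRR-high and 628.2 CPM in other RWPE-ERG-mAKT cells (log2 ratio 1.16), and at 1793 CPM in SPRR-high and 257.0 CPM in other RWPE1 cells (2.80). Desmocollin 2 (DSC2) had ratios of 1.21 in RWPE-ERG-mAKT and 3.40 in RWPE1, and desmoglein 3 (DSG3) had 1.07 in RWPE-ERG-mAKT and 2.24 in RWPE1. PKP2, the plakophilin of simple epithelia and heart, had -0.43 in RWPE-ERG-mAKT and -0.83 in RWPE1.

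Proteases and their inhibitors time the shedding of squamous cells. Of this list, 8 of 14 measured genes were at least 2-fold higher in SPRR-high RWPE-ERG-mAKT cells (median 1.12) and 12 of 15 in SPRR-high RWPE1 cells (median 3.64), and none was 2-fold lower. Among all measured genes 0.89% were at least 2-fold higher in RWPE-ERG-mAKT and 4.64% in RWPE1. Without SPINK5, measured in RWPE1 only through the SPRR-high cells, 11 of 14 were higher there (median 3.49), and over all alternatives the RWPE1 median ran from 1.59 to 3.89. Elafin (PI3), an elastase inhibitor that is crosslinked into the envelope, was at 170.9 CPM in SPRR-high and 21.5 CPM in other RWPE-ERG-mAKT cells (log2 ratio 2.99), and at 1154 CPM in SPRR-high and 33.4 CPM in other RWPE1 cells (5.11). SLPI, the neighbouring inhibitor of leukocyte proteases, was at 2973 CPM in SPRR-high and 1200 CPM in other RWPE-ERG-mAKT cells (1.31), and at 1377 CPM in SPRR-high and 49.4 CPM in other RWPE1 cells (4.80). SERPINB13, SERPINB2 and SERPINB3 had ratios of 2.29, 2.08 and 1.57 in RWPE-ERG-mAKT, and SERPINB13 and SERPINB3 had 2.15 and 3.66 in RWPE1.

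The kallikreins are serine proteases that cut the desmosomes of shedding cells, and those of the chromosome 19 cluster reached the level of a measured gene in RWPE1 alone. KLK8 was at 348.4 CPM in SPRR-high and 13.6 CPM in other RWPE1 cells (log2 ratio 4.67), KLK5 at 270.2 and 10.4 CPM (4.70) and KLK10 at 132.1 and 7.73 CPM (4.09). In RWPE-ERG-mAKT KLK8 was at 4.04 CPM in SPRR-high and 0.821 CPM in other cells, KLK5 at 13.9 and 1.35 CPM and KLK10 at 29.5 and 2.09 CPM. SPINK5 encodes LEKTI, an inhibitor of KLK5. It was at 13.6 CPM in SPRR-high and 5.87 CPM in other RWPE-ERG-mAKT cells (1.22), and at 581.8 CPM in SPRR-high and 1.51 CPM in other RWPE1 cells (8.59, and 7.85 without the cell that held 40.8% of its UMIs).

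Of the surface genes of suprabasal and mucosal cells, 3 of 12 measured genes were at least 2-fold higher in SPRR-high RWPE-ERG-mAKT cells (median 0.50) and 10 of 15 in SPRR-high RWPE1 cells (median 2.15), or 9 of 14 (median 1.74) without ECM1, which was measured only through the SPRR-high cells. The background was 0.89% of all measured genes in RWPE-ERG-mAKT and 4.64% in RWPE1. Over all alternatives the RWPE1 median ran from 0.87 to 2.54. LY6D, a membrane-anchored protein of squamous and urothelial cells, was at 0.97 CPM (7 UMIs) in SPRR-high and 1.92 CPM in other RWPE-ERG-mAKT cells, and at 990 CPM in SPRR-high and 24.8 CPM in other RWPE1 cells (log2 ratio 5.32). PSCA, prostate stem cell antigen, was at 12.7 CPM in SPRR-high and 16.2 CPM in other RWPE-ERG-mAKT cells (-0.36), and at 212.7 CPM in SPRR-high and 5.81 CPM in other RWPE1 cells (5.19). At 5.81 CPM the other RWPE1 cells alone fell short of the 10 predicted UMIs, so PSCA also passed only through the SPRR-high cells. It was not left out of the 9 of 14. CLDN4, a claudin of tight junctions, was higher in both, with a ratio of 1.58 in RWPE-ERG-mAKT and 2.67 in RWPE1.

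The remaining genes with large ratios in both libraries included AQP3, the glycerol and water channel of keratinocytes, at 91.9 CPM in SPRR-high and 11.1 CPM in other RWPE-ERG-mAKT cells (log2 ratio 3.04), and at 187.2 CPM in SPRR-high and 7.25 CPM in other RWPE1 cells (4.69). IL1RN, the interleukin-1 receptor antagonist, was at 57.6 CPM in SPRR-high and 10.5 CPM in other RWPE-ERG-mAKT cells (2.46), and at 71.7 CPM in SPRR-high and 3.78 CPM in other RWPE1 cells. Its counterpart IL1B was higher in RWPE-ERG-mAKT (1.96) and not in RWPE1 (-0.23). LCN2 (lipocalin 2, an iron-binding antimicrobial protein) was at 961.5 CPM in SPRR-high and 3.91 CPM in other RWPE1 cells (7.94). In RWPE1 it was measured only through the SPRR-high cells, so it had to differ there. In RWPE-ERG-mAKT 1 cell held 62.1% of the LCN2 UMIs, and the ratio of 2.78 was 1.38 without that cell. SPINK7, an inhibitor known from oesophagus, was at 11.7 CPM in SPRR-high and 0.0597 CPM in other RWPE-ERG-mAKT cells, and at 123.8 CPM in SPRR-high and 0.0628 CPM in other RWPE1 cells.

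**Figure D4:**
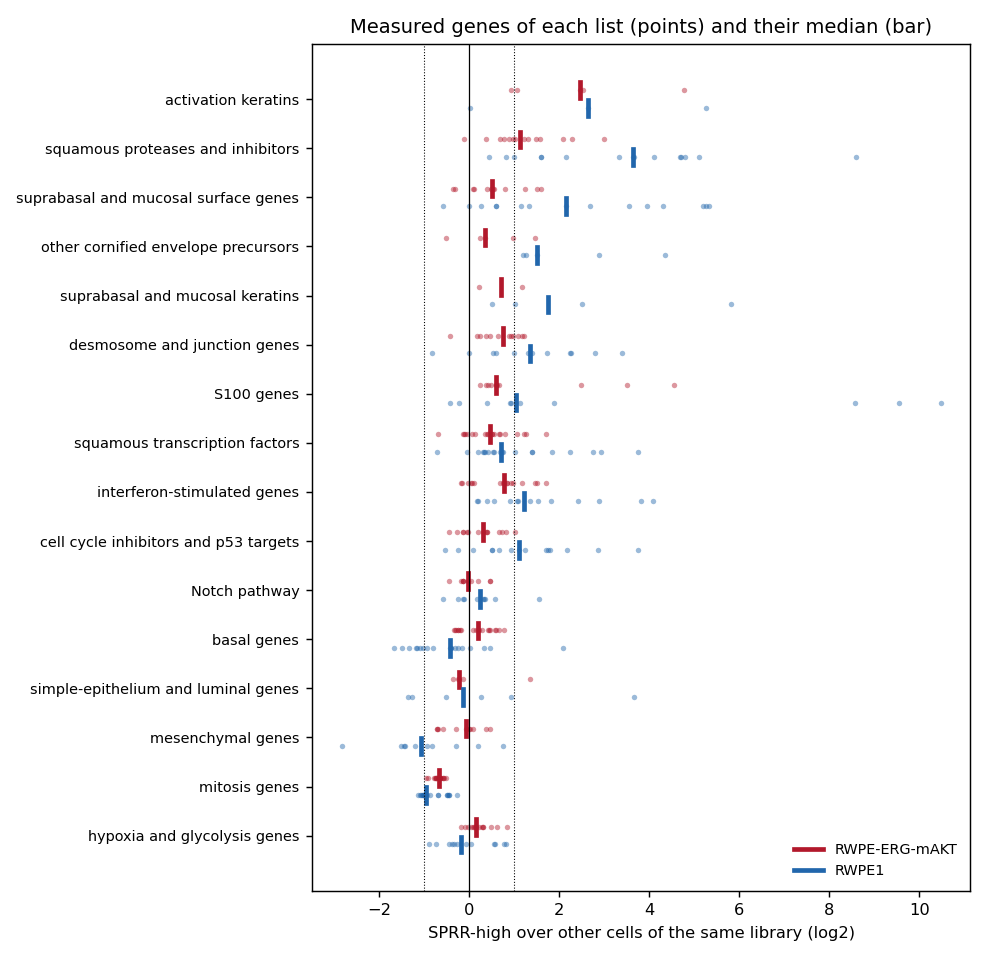
Log2 ratio of SPRR-high over other cells for the measured genes of 16 lists (points), with the list median (bar), RWPE-ERG-mAKT above RWPE1 in each row; dotted lines mark 2-fold. The proteases and inhibitors have medians of 1.12 and 3.64, and the mitosis genes lie below 0 in both libraries (-0.67 and -0.96).

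Among transcription factors of squamous differentiation, 4 of 20 measured genes were at least 2-fold higher in RWPE-ERG-mAKT (median 0.45) and 8 of 20 in RWPE1 (median 0.70). Over all measured genes the shares were 0.89% in RWPE-ERG-mAKT and 4.64% in RWPE1. ELF3, an epithelial ETS factor that drives SPRR genes, was at 38 CPM in SPRR-high and 11.7 CPM in other RWPE-ERG-mAKT cells (log2 ratio 1.69), and at 212.1 CPM in SPRR-high and 15.8 CPM in other RWPE1 cells (3.75). The other 3 at least 2-fold higher in RWPE-ERG-mAKT were also 2-fold higher in RWPE1. They were the ELF3 relative EHF (1.26 in RWPE-ERG-mAKT and 2.92 in RWPE1), the epidermal factor GRHL1 (1.06 and 2.74) and HES2 (1.22 and 1.02). KLF4, which is needed for the skin barrier, had ratios of 0.79 in RWPE-ERG-mAKT and 0.76 in RWPE1. FOSL1, an AP-1 subunit, was lower in both (-0.70 and -0.73).

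Basal genes were in part lower in SPRR-high RWPE1 cells. Of 19 measured, 1 was at least 2-fold higher and 7 were at least 2-fold lower there (median -0.42), where 4.64% and 5.31% of all measured genes were. In SPRR-high RWPE-ERG-mAKT cells 0 of 19 were 2-fold different in either direction (median 0.18), a count near the background of 0.89% higher and 0.479% lower. Caveolin 1 (CAV1) was at 735.9 CPM in SPRR-high and 899.2 CPM in other RWPE-ERG-mAKT cells (log2 ratio -0.29), and at 372.1 CPM in SPRR-high and 1185 CPM in other RWPE1 cells (-1.67). COL17A1, ITGB4 and DST, which anchor basal cells to the basement membrane, had ratios of 0.15, -0.21 and 0.28 in RWPE-ERG-mAKT and of -1.11, -1.03 and -1.19 in RWPE1. The 1 at least 2-fold higher was KRT15, at 93.4 CPM in SPRR-high and 55.2 CPM in other RWPE-ERG-mAKT cells (0.76), and at 450.3 CPM in SPRR-high and 107.1 CPM in other RWPE1 cells (2.07). TP63, the master regulator of squamous lineages, had ratios of 0.18 in RWPE-ERG-mAKT and -0.16 in RWPE1.

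Mesenchymal genes were in part lower in SPRR-high RWPE1 cells. FN1 (fibronectin) was at 11.6 CPM in SPRR-high and 19.1 CPM in other RWPE-ERG-mAKT cells (log2 ratio -0.72), and at 7.11 CPM (12 UMIs) in SPRR-high and 50.7 CPM in other RWPE1 cells (-2.84, and -4.09 without the cell that held 7 of the 12). VIM (vimentin) had ratios of -0.59 in RWPE-ERG-mAKT and -1.22 in RWPE1, and SNAI2, which represses epithelial genes, had -0.08 and -1.45. At least 2-fold lower were 0 of 11 measured mesenchymal genes in RWPE-ERG-mAKT (median -0.08) and 5 of 10 in RWPE1 (median -1.08). Of all measured genes 0.479% were in RWPE-ERG-mAKT and 5.31% in RWPE1, so 0 of 11 is near the background. NRG1, a ligand of ERBB receptors, was at 13.9 CPM in SPRR-high and 16.3 CPM in other RWPE-ERG-mAKT cells (-0.23), and at 17.2 CPM in SPRR-high and 98.6 CPM in other RWPE1 cells (-2.52). EGFR had ratios of -0.25 in RWPE-ERG-mAKT and -1.16 in RWPE1. Outside the gene lists, AKAP12, which encodes a scaffold of protein kinase A, was lower in both libraries, at 51.4 CPM in SPRR-high and 122.9 CPM in other RWPE-ERG-mAKT cells (-1.26) and at 5.92 CPM (10 UMIs) in SPRR-high and 22.3 CPM in other RWPE1 cells (-1.91).

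Mitosis genes had ratios below 0 in the SPRR-high cells of both libraries. This held for all 20 measured genes, of which 0 in RWPE-ERG-mAKT (median -0.67) and 8 in RWPE1 (median -0.96) were at least 2-fold lower. Of all measured genes 0.479% were at least 2-fold lower in RWPE-ERG-mAKT and 5.31% in RWPE1, so the count of 0 is near the background. CENPF, a kinetochore protein of dividing cells, was at 199.1 CPM in SPRR-high and 387.2 CPM in other RWPE-ERG-mAKT cells (log2 ratio -0.96), and at 162.3 CPM in SPRR-high and 326.6 CPM in other RWPE1 cells (-1.01). The summed mitosis genes had a median of 7.72 UMIs per 10000 in SPRR-high and 14.9 in other RWPE-ERG-mAKT cells, and of 4.09 in SPRR-high and 13.8 in other RWPE1 cells. The S phase list had medians of -0.06 in RWPE-ERG-mAKT and -0.16 in RWPE1, and none of its genes was 2-fold lower in either library. CCNE2, a cyclin of the G1 to S transition, was at 15 CPM in SPRR-high and 14.1 CPM in other RWPE-ERG-mAKT cells (0.09), and at 24.9 CPM in SPRR-high and 9.84 CPM in other RWPE1 cells (1.34).

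CDKN1A, which encodes the cell cycle inhibitor p21, was at 168.6 CPM in SPRR-high and 101.5 CPM in other RWPE-ERG-mAKT cells (log2 ratio 0.73), and at 399.9 CPM in SPRR-high and 29.6 CPM in other RWPE1 cells (3.75). CDKN1C (p57) had ratios of 1.01 in RWPE-ERG-mAKT and 2.86 in RWPE1, and MDM2, a p53 target, 0.37 and 2.16. Of the cell cycle inhibitors and p53 targets, 1 of 15 was at least 2-fold higher in RWPE-ERG-mAKT (median 0.29) and 8 of 15 in RWPE1 (median 1.10). The shares of all measured genes were 0.89% in RWPE-ERG-mAKT and 4.64% in RWPE1.

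The levels of several genes moved with the score. S100A9 was at 115.9, 196.2, 312.9, 1045 and 4897 CPM in RWPE-ERG-mAKT cells with a score of 0, from the 80th to the 90th percentile, from the 90th to the 98th, and in the lower 319 and the upper 69 of the SPRR-high cells, and at 11.1, 33.8, 365.6, 2201 and 10500 CPM in the same bands of RWPE1, where 43 and 52 SPRR-high cells lay on the lower and upper side of the same score. KRT4 stayed between 0.17 and 1.53 CPM in the bands of RWPE-ERG-mAKT, while in RWPE1 it was at 8.37, 15.5, 100.8, 367.7 and 733.8 CPM. CENPF was at 403.4, 378.3, 306.3, 228 and 68.9 CPM in the bands of RWPE-ERG-mAKT and at 329, 294.1, 241.3, 206.4 and 118.3 CPM in those of RWPE1. The cells just below the threshold thus lay between the SPRR-high cells and the cells with a score of 0 for all 3 genes in RWPE1, and for S100A9 and CENPF in RWPE-ERG-mAKT.

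**Figure D5:**
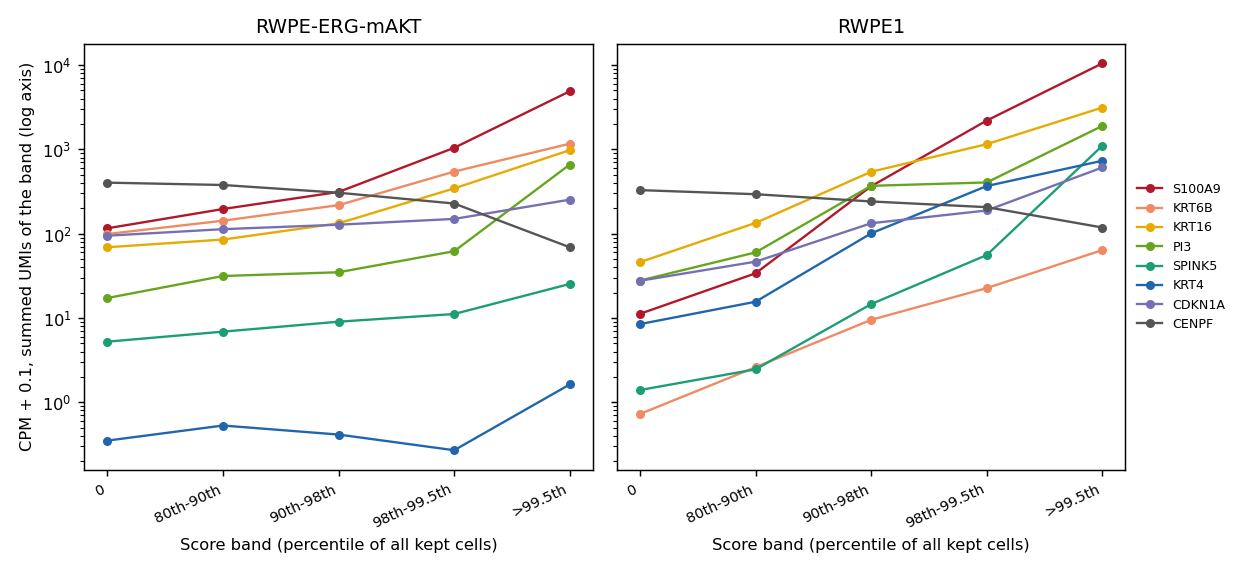
Summed level of 8 genes (CPM with 0.1 added, log axis) in 5 bands of the pooled score percentile, RWPE-ERG-mAKT left and RWPE1 right. S100A9 reaches 4897 CPM in the top band of RWPE-ERG-mAKT (69 cells) and 10500 CPM in that of RWPE1 (52 cells), where KRT4 is at 1.53 and 733.8 CPM.

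Levels were also compared by the number of score genes in a cell, over 17 genes picked from those reported above. The share of all measured genes with such an order was not computed, so the counts describe the 17 genes alone. In RWPE-ERG-mAKT 15 of them rose in order from 1 to 2 to at least 3 score genes, 1 fell (CENPF) and KRT4 did neither. Among the 15, LY6D rested on 1, 3 and 3 UMIs. KRT13 rested on 10, 29 and 70 UMIs, and 1 cell held 49 of them. In RWPE1 11 rose in this order, while KRT6A, KRT6B, KRT6C, AQP3, LY6D and CENPF followed no order. In RWPE-ERG-mAKT, S100A9 was at 423.9 CPM in SPRR-high cells with 1 score gene, 1057 CPM with 2 and 4449 CPM with at least 3, against 152.9 CPM in other cells. KRT6B was at 347, 607.6 and 1149 CPM in these groups, and KRT16 at 224.7, 357.8 and 915 CPM. In RWPE1, SPINK5 was at 19.1 CPM in SPRR-high cells with 1 score gene, 320.4 CPM with 2 and 1102 CPM with at least 3, and KRT13 at 467.2, 853 and 1804 CPM. KRT6B was at 17, 57.3 and 51 CPM in the same RWPE1 groups, LY6D at 843, 1447 and 793.8 CPM and CENPF at 167.8, 152.8 and 164.9 CPM.

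The SPRR-high cells of both libraries were then set against each other, with the same ratio in the other cells beside it. For this comparison a gene counted as measured at 5 CPM or more over the SPRR-high cells of both libraries together, with at least 10 UMIs predicted in each. A gene high in the SPRR-high cells of 1 library alone could pass this filter, and such a gene had to differ. Of 10179 genes measured in this way, 1001 (9.83%) were at least 2-fold higher in SPRR-high RWPE-ERG-mAKT cells. At least 2-fold lower were 1751 (17.2%), and the median log2 ratio was -0.14. These ratios hold the differences that the 2 libraries have in all their cells. KRT4 had a log2 ratio of -10.37 between SPRR-high cells and -5.11 between other cells, LY6D -9.99 and -3.69, KLK8 -6.43 and -4.05, and KRT13 -6.26 and -4.93. SPINK5 had -5.41 between SPRR-high cells and 1.96 between other cells, S100A9 had -1.86 and 3.20, and KRT16 had -2.22 and 0.52. For these 3 genes SPRR-high cells were lower and other cells higher in RWPE-ERG-mAKT than in RWPE1. The SPRR-high cells also differed in score, with a median of 5.57 in RWPE-ERG-mAKT and 12.2 in RWPE1. Within the lower and the upper score band of the SPRR-high cells, the log2 ratio of S100A9 was -1.07 and -1.10, that of KRT16 -1.74 and -1.68, and that of SPINK5 -2.33 and -5.45.

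Several of the genes with the largest ratios in favour of SPRR-high RWPE-ERG-mAKT cells were also higher in the other cells of that library. KRT6B had log2 ratios of 3.93 between SPRR-high cells and 7.22 between other cells, KRT6C 4.54 and 6.37, and IGFL1, an insulin growth factor-like protein of inflamed skin, 4.99 and 4.69. SAA1, an acute phase protein with a near-identical copy in SAA2, had 4.16 and 3.36. TNFAIP3, an NF-kB target that limits NF-kB signalling, was at 60.6 CPM in SPRR-high RWPE-ERG-mAKT cells and had 1 UMI in SPRR-high RWPE1 cells. NNMT, which methylates nicotinamide, was at 315 CPM in SPRR-high RWPE-ERG-mAKT cells and at 6.52 CPM in SPRR-high RWPE1 cells (5.60), against 302.2 CPM in other RWPE-ERG-mAKT cells and 36.4 CPM in other RWPE1 cells (3.05).

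In SPRR-high cells SLPI was higher in RWPE-ERG-mAKT by a log2 ratio of 1.11, against 4.60 in other cells. The list medians between SPRR-high cells were -1.68 for the proteases and inhibitors (5 of 26 measured genes at least 2-fold higher and 16 at least 2-fold lower) and -3.17 for the surface genes (1 of 23 higher and 14 lower). The activation keratins ran the other way, with a median of 2.56 and 4 of 5 at least 2-fold higher in RWPE-ERG-mAKT. Of all genes in this comparison, 9.83% were at least 2-fold higher and 17.2% at least 2-fold lower. List genes high in the SPRR-high cells of 1 library alone could pass the filter and then had to differ. They were not left out, so these counts and medians carry no test. With 1 library per condition, the part of culture, passage and library in these differences cannot be told apart from that of ERG and mAKT.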

How the data were processed

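Single-cell RNA was read from 1 library of RWPE-ERG-mAKT and 1 of RWPE1. The deposited values are raw UMI counts per gene and barcode, which the authors made with Cell Ranger 7.1.0 on hg38, from the 3' ends of transcripts. Replicates were not pooled, and whether the counting used strand is not given in the sources used here. The matrices held 17355 barcodes with 237490385 UMIs for RWPE-ERG-mAKT and 12504 barcodes with 217340524 UMIs for RWPE1, for a stated input of 10000 cells each. Kept were 14140 RWPE-ERG-mAKT and 9967 RWPE1 barcodes with over 2500 detected genes and under 7.5% mitochondrial UMIs. The study's own filter took 2500 genes as its upper limit, so that filter as stated would leave these cells out.

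UMIs were summed over SPRR-high and over other cells and divided by the summed total (CPM). Log2 ratios carry Poisson intervals and shares exact binomial (Clopper-Pearson) intervals, both at 95%, for counting error only. Genes of at least 5 CPM over all kept cells and at least 10 UMIs predicted in SPRR-high cells were measured, and at least 2-fold was the level for a call. Between the SPRR-high cells of the libraries, the 5 CPM was asked over both groups together and the 10 predicted UMIs in each. A count of 0 was bounded at a floor of 3 counts. With 1 library per condition no test was run. Shares of cells were compared after thinning each cell to 5000 UMIs, or 500 for free RNA. No doublet caller was run, and cells above the 95th percentile of UMIs were left out as an alternative. The scripts were tested on simulated data. Of 36601 gene identifiers 34616 (94.6%) had coordinates in GENCODE release 29, and promoters were from RefSeq. Sums and intervals were computed with scipy 1.17.1, pandas 2.3.3 and numpy 2.4.6 under Python 3.11.15, and plots were drawn with matplotlib 3.10.9.

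The rule for the members and the 32 gene lists (541 genes) were chosen with earlier results of these data known. Named were the 6 score genes, the 12 measured genes with the largest ratio each way in each library (at least 20 CPM in the higher group and the same direction in the other library), up to 4 genes per list with the largest ratios and at least 20 CPM, the 12 with the largest ratio each way between the SPRR-high cells of the libraries (at least 50 CPM in the higher one), and ERG and AKT1. A few other genes of the lists and of the marker check are named to describe a count or a contrast and were chosen after their values were seen. Some genes that the rule names are not reported here. Alternatives changed the percentile, the cell filters, the genes of the score, the depth, the scaling, the weight of cells and the filter on low levels.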

Additional observations from a re-analysis of the deposited data

Results flagged for a closer look

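Of the genes measured in both libraries, 2 were at least 2-fold higher in the SPRR-high cells of one library and at least 2-fold lower in those of the other. MFAP5, which encodes a microfibril protein, was at 14.1 CPM in SPRR-high and 5.96 CPM in other RWPE-ERG-mAKT cells (log2 ratio 1.24), and at 9.48 CPM (16 UMIs) in SPRR-high and 37.4 CPM in other RWPE1 cells (-1.98). AC079160.1, a gene known by its clone name, was at 4.32 CPM (31 UMIs) in SPRR-high and 10.9 CPM in other RWPE-ERG-mAKT cells (-1.34), and at 13.6 CPM (23 UMIs) in SPRR-high and 6.48 CPM in other RWPE1 cells (1.07). With 1 library per condition, the difference between the libraries was not tested.

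Barcodes that failed the filters also reached the score threshold. In RWPE-ERG-mAKT 190 of 3215 such barcodes (5.91%, interval 5.12 to 6.78) lay at or above it, with a median of 3934 UMIs over all 3215. In RWPE1 52 of 2537 did (2.05%, interval 1.53 to 2.68), with a median of 8453 UMIs. Counting only those at the threshold that also held at least 3 score UMIs, the shares of all such barcodes were 1.68% (54 of 3215) in RWPE-ERG-mAKT and 1.58% (40 of 2537) in RWPE1. The part of depth in this difference was not tested.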

How the results depend on the processing

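The share of SPRR-high cells followed the threshold. It was 7.44% in RWPE-ERG-mAKT and 1.55% in RWPE1 at the 95th percentile (log2 ratio 2.27), and 1.24% and 0.672% at the 99th (0.88). Taken within each library, the percentile fixes the share by construction, at 2.001% in RWPE-ERG-mAKT and 2.007% in RWPE1 (-0.0037). The share was 2.3% in RWPE-ERG-mAKT at a 5% mitochondrial limit, which kept 32 of the 95 SPRR-high RWPE1 cells, and 3.6% after thinning. Without SPRR1B it was 0.702% in RWPE1 (log2 ratio 2.06), and 41.2% of SPRR-high RWPE-ERG-mAKT cells and 60.0% of SPRR-high RWPE1 cells remained.

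Genes at least 2-fold higher in RWPE-ERG-mAKT numbered 59 at the 95th percentile, 37 at a 20 CPM minimum and 177 at a 1 CPM minimum or without one. Those lower numbered 6, 162, 22 and 17 at the 95th and 99th percentiles, after thinning and without SPRR1B, and 4 at 20 CPM and 227 at 1 CPM or none. In RWPE1 300 were higher and 224 lower within libraries, 178 higher and 296 lower at 20 CPM, and 316 lower at the 95th percentile. Between SPRR-high cells 878 were lower at the 5% limit and 804 at 20 CPM. The causes were not tested. Within libraries TNFAIP3 in RWPE1 turned to 0.95 and the SPRR1B ratio between SPRR-high cells of the libraries to 0.029. Over all alternatives the shares stayed in their interval, or the counts within a set factor of their size, in 141 cases. They moved in 30 and reversed in 1. Some of the 141 could not change. At a lower CPM minimum the RWPE1 counts were fixed, since the 10 predicted UMIs already asked for a higher level.

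Leaving out for each gene the SPRR-high cell with most of its UMIs, chosen after seeing the data, 152 of 160 named ratios of at least 2-fold remained so. Fewer remained at the 95th percentile (122), within libraries (130, with 1 reversed), without SPRR1B (140) and after thinning (141), and 151 to 159 under the others. Of 12 list medians of at least 2-fold, 7 remained at 20 CPM, 8 within libraries and 9 at the 95th percentile. The median of the proteases in RWPE1 ran from 1.59 to 3.89, that of the surface genes from 0.87 to 2.54, and that of the NF-kB list in RWPE-ERG-mAKT from -0.19, at the 99th percentile, to 0.90. Also added after seeing the data were leaving out the highest-scoring cell of each library and asking for 5 CPM in the other cells alone, which left 88 and 477 genes higher in RWPE-ERG-mAKT and RWPE1. No paired analysis was possible because each condition had 1 library, and for the same reason no replicate could be left out. RWPE1 held 95 SPRR-high cells, so a gene of 5 CPM had few UMIs there, and ratios of such genes have wide counting intervals.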

Other observations

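Interferon-stimulated genes had higher list medians in the SPRR-high cells of both libraries, with different leading genes. Of 17 measured genes 4 were at least 2-fold higher in SPRR-high RWPE-ERG-mAKT cells (median log2 ratio 0.77), and of 14 measured genes 9 were in SPRR-high RWPE1 cells (median 1.21). The background was 0.89% of all measured genes in RWPE-ERG-mAKT and 4.64% in RWPE1. IFIT2, which binds foreign RNA, was at 58.2 CPM in SPRR-high and 18 CPM in other RWPE-ERG-mAKT cells (1.69), and at 26.7 CPM in SPRR-high and 23.3 CPM in other RWPE1 cells (0.20). IFI27 was at 114.4 CPM in SPRR-high and 64.6 CPM in other RWPE-ERG-mAKT cells (0.82), and at 215.1 CPM in SPRR-high and 12.7 CPM in other RWPE1 cells (4.08). IFI6 was at 46.4 CPM in SPRR-high and 51.7 CPM in other RWPE-ERG-mAKT cells (-0.16), and at 109.6 CPM in SPRR-high and 7.84 CPM in other RWPE1 cells (3.80).

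CRABP2, which carries retinoic acid to its nuclear receptor and was measured in RWPE-ERG-mAKT only through the SPRR-high cells, was higher in both libraries, at 19.8 CPM in SPRR-high and 4.58 CPM in other RWPE-ERG-mAKT cells (2.11), and at 211.5 CPM in SPRR-high and 11.2 CPM in other RWPE1 cells (4.24). HES1, a Notch target, had ratios of 0.45 in RWPE-ERG-mAKT and 1.55 in RWPE1. At least 2-fold higher were 0 of 11 measured Notch pathway genes in RWPE-ERG-mAKT and 1 of 10 in RWPE1. These counts are near the background of 0.89% of all measured genes in RWPE-ERG-mAKT and 4.64% in RWPE1. CD24, a surface glycoprotein, was at 215.2 CPM in SPRR-high and 85.1 CPM in other RWPE-ERG-mAKT cells (1.34), and at 500.6 CPM in SPRR-high and 39.7 CPM in other RWPE1 cells (3.66). HMGA2, a chromatin protein of growing and embryonic cells, was lower by about the same ratio in both libraries (-1.06 in RWPE-ERG-mAKT and -1.03 in RWPE1), although its level was 28.7 CPM in other RWPE-ERG-mAKT cells and 246.2 CPM in other RWPE1 cells.

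No gene of the cholesterol and lipid synthesis list (15 measured in each library) and none of the hypoxia and glycolysis list (15 measured in RWPE-ERG-mAKT and 12 in RWPE1) was 2-fold different in either direction. These counts are near the share of all measured genes that were, 0.89% higher and 0.479% lower in RWPE-ERG-mAKT and 4.64% and 5.31% in RWPE1. The NF-kB list had 3 of 12 measured genes at least 2-fold higher in RWPE-ERG-mAKT (median 0.46, and -0.19 at the 99th percentile) and 0 of 6 in RWPE1 (median 0.03). MALAT1, a nuclear RNA whose share can move with the loss of cytoplasmic RNA, was at 6648 CPM in SPRR-high and 7934 CPM in other RWPE-ERG-mAKT cells (-0.26), and at 15688 CPM in SPRR-high and 9759 CPM in other RWPE1 cells (0.68). Its part in the RWPE1 ratios was not tested.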
